A study of Mus musculus with 10 samples.

Results

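Axon guidance genes encode the secreted and membrane-bound cues that steer growing axons and the receptors that read them. The 66 genes described here are the members of 4 such systems, taken from the deposited normalized table by symbol: the vertebrate semaphorins with their plexin and neuropilin receptors, the ephrins with the Eph receptors, the Slits with the Robo receptors, and the netrins with Dcc and the Unc5 receptors. They are 66 of 21862 genes in that table, 33 ligands and 33 receptors. PolyA RNA was sequenced from primary cortical neurons of wild-type (WT) C57BL/6J mouse embryos, taken at E16.5 (embryonic day). The cultures make 4 groups, all treated with 0.5 µM AraC, an inhibitor of dividing cells: H2BE-BDNF (lentivirus expressing H2BE, then BDNF), H2BE (the same virus, unstimulated), BDNF (control lentivirus, then BDNF) and Control (control lentivirus, unstimulated). RNA was taken 24 h after the addition of BDNF, a secreted neurotrophin whose receptor is TrkB. H2BE is a variant of histone H2B, and the virus expresses it from a constitutive promoter, in whichever cells it infects. Nothing in the labels says that replicates came from separate cultures, so the p-values below reflect only how far these samples differ, which may be technical.

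Semaphorins were first known for collapsing growth cones. Secreted class 3 semaphorins mostly act on a neuropilin paired with an A-type plexin, while membrane semaphorins and Sema3e bind plexins directly. Ephrins sit in the membrane of one cell and bind Eph receptor tyrosine kinases on its neighbour, with ephrin-A proteins held by a lipid anchor and ephrin-B proteins crossing the membrane. Slits repel axons through Robo receptors, and netrin-1 attracts axons through Dcc and repels them where Unc5 receptors take part. In cortical neurons these systems also act after axon growth, on dendrites, spines and synapses.

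The 10 libraries held 5058074 to 14142545 counts, of which 27639 to 70068 fell on guidance genes. In both BDNF and Control the third replicate exceeded the first at 0 of 48526 genes, that is, it holds a subset of the same counts. The pair was averaged and counted as 1 sample, which leaves n = 2 per group. H2bc21, which encodes H2BE, averaged 39.1 ± 5.0 CPM in H2BE and 5.27 ± 0.076 CPM in Control, and 33.6 ± 2.2 CPM in H2BE-BDNF and 3.98 ± 0.15 CPM in BDNF (SD, n = 2 each). Levels are given in CPM, counts scaled to a common library total after TMM scaling. Against the labelled cell type, the 5 neuron markers summed to 5120 to 5150 CPM in H2BE-BDNF, 5110 to 5130 CPM in H2BE, 5270 to 5450 CPM in BDNF and 4790 to 4890 CPM in Control. With BDNF, Map2 was higher under each virus, and Rbfox3 and Tubb3 were lower under each. Syt1 was lower with BDNF under the H2BE virus alone (log2 fold change -0.30, and -0.03 under the control virus). The 6 interneuron markers summed to 1640 to 1690 CPM in H2BE-BDNF, 1720 to 1800 CPM in H2BE, 1930 to 2090 CPM in BDNF and 1980 to 2060 CPM in Control, so that samples with the H2BE virus lay below those with the control virus. Among them Gad2 was higher and Sst lower with BDNF under each virus, Slc32a1 was lower with BDNF under the H2BE virus, and Sst was lower in H2BE than in Control (log2 fold change -0.40, adjusted p = 0.00523). The 5 markers of excitatory neurons summed to 674 to 713 CPM in H2BE-BDNF, 703 to 752 CPM in H2BE, 630.0 to 641 CPM in BDNF and 636 to 652 CPM in Control. With BDNF, Slc17a6 and Tbr1 were higher and Neurod6 lower under each virus, and Slc17a7 was lower under the control virus. The 6 astrocyte markers summed to 43.9 to 87.0 CPM over all samples. Microglial markers summed to at most 5.32 CPM and endothelial markers to at most 2.43 CPM. Markers of the oligodendrocyte lineage summed to 83.5 to 87.3 CPM in H2BE-BDNF and 47.1 to 51.3 CPM in H2BE, and to 76.2 to 84.3 CPM in BDNF and 43.3 to 46.1 CPM in Control. Of the 8 markers in that list 1, Mbp, was higher with BDNF under each virus, none was lower, and Sox10 had at most 3 counts in any library. Of 7 progenitor markers 4 were higher and 1 lower in BDNF against Control, at sums of 60.6 to 65.0 CPM and 48.9 to 59.3 CPM. Of 5 fibroblast markers 1, Dcn, was lower with BDNF under each virus, at sums of 23.7 to 29.7 CPM in H2BE-BDNF and 37.5 to 47.5 CPM in H2BE, and of 21.5 to 29.7 CPM in BDNF and 35.7 to 43.3 CPM in Control. Mki67 was the 1 progenitor marker called, as higher, in H2BE-BDNF against H2BE. It averaged 1.62 CPM in H2BE-BDNF and 0.409 CPM in H2BE, and 1.79 CPM in BDNF and 0.479 CPM in Control. Top2a, also among the 4 higher in BDNF against Control, averaged 1.56 CPM in BDNF and 0.571 CPM in Control. Both passed the filter on low counts only through samples with BDNF, so their tests are not independent of that filter. Under the H2BE virus, Aif1 of 6 microglial and Rgs5 of 4 mural markers were also higher with BDNF and Aqp4 of 6 astrocyte markers was lower, and under the control virus the astrocyte marker Gja1 was higher. Aif1 was near the floor, at 1.35 CPM in H2BE-BDNF and 0.169 CPM in H2BE, with 82 counts in all 10 libraries. The part of these cells in the guidance results was not tested.

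Most guidance genes were expressed in these cultures. In Control neurons the highest levels per kilobase of exon belonged to Efnb3, an ephrin-B ligand (91.7 CPM per kilobase), followed by Plxnd1, the receptor of Sema3e (41.4), Sema6b (38.2), Sema7a, a lipid-anchored semaphorin (31.2), and Plxna1 (28.1). Efnb3 kept the first place in the other groups, at 75.4 CPM per kilobase in H2BE-BDNF, 99.3 in H2BE and 73.0 in BDNF. Plxna4 reached 38.4 and 44.4 CPM per kilobase in the H2BE-BDNF and BDNF groups, against 20.6 in H2BE and 17.6 in Control. A filter on low counts kept 58 of the 66 genes, 29 ligands and 29 receptors. The other 8, Efna1, Efna4, Epha1, Ephb4, Robo3, Robo4, Sema3b and Sema3g, were at 0 to 1.38 CPM in every sample, near the 0.21 to 0.593 CPM that 3 counts are worth, and were not tested. Plxnb3, with 3 counts in all 10 libraries, and Ntn5, with 0 counts, fall outside the deposited normalized table, and Ntn3 was not analysed here.

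**Figure D1:**
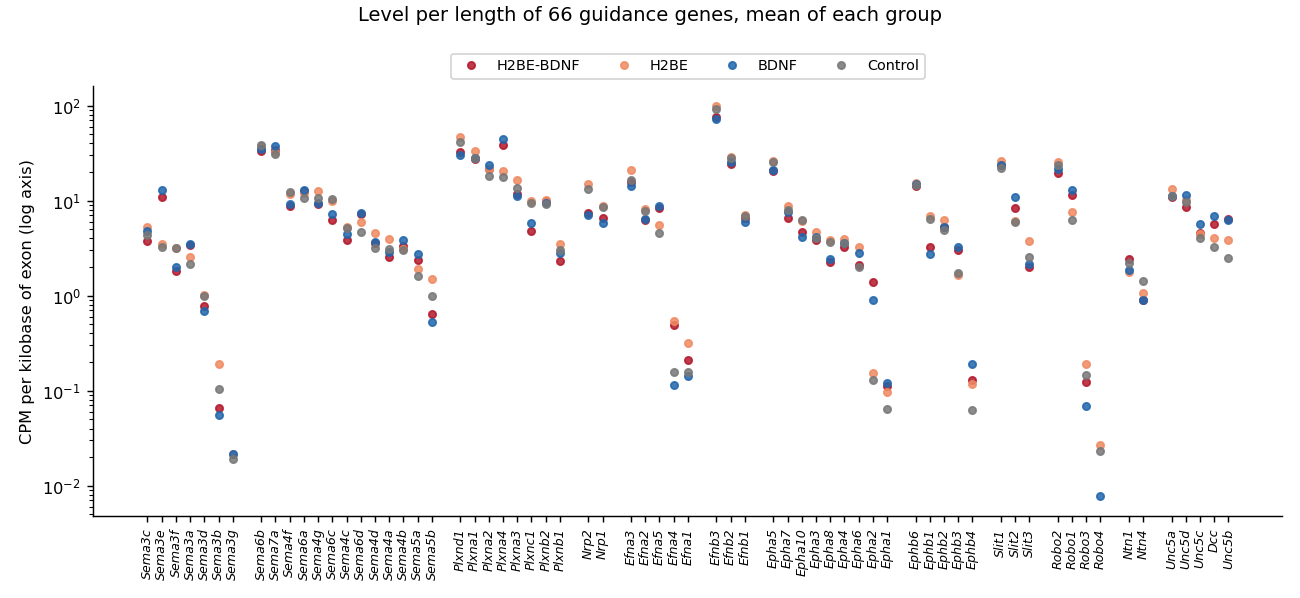
Mean level of each of the 66 guidance genes per kilobase of exon (CPM per kilobase, log axis), by role and, within a role, by the level in Control; the points are the means of H2BE-BDNF, H2BE, BDNF and Control (n = 2 each), and a mean of 0 is not drawn. Efnb3 lies highest in all 4 groups, and the 8 genes that were not tested lie under 1 CPM per kilobase.

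BDNF changed guidance genes in both directions. In BDNF against Control, 18 of the 58 tested genes were higher, where 16.8% of all 13452 genes tested were higher, and 15 were lower, where 14.7% were lower. That is 33 calls in all, where 31.4% of all genes were called (edgeR quasi-likelihood test, Benjamini-Hochberg adjusted p under 0.05 over all genes, as for every call below). The median log2 fold change of the guidance genes was -0.08, and that of all genes was -0.01. The higher genes were led by the Eph receptor Epha2, the semaphorin Sema3e, the plexin Plxna4, the netrin receptors Unc5b and Dcc, Robo1, the ephrin Efna5 and the Robo ligand Slit2. The lower genes were led by the Eph receptor Ephb1, the semaphorin Sema5b and the neuropilin Nrp2. Under the H2BE virus, in H2BE-BDNF against H2BE, 12 guidance genes were higher, where 13.5% of all genes were higher, and 28 were lower, where 12.4% were lower, so 40 were called, where 25.9% of all genes were. Their median log2 fold change was -0.27, against -0.00 for all genes. Without H2BE replicate 2 the count of lower genes was 18. By side, 9 ligands and 9 receptors were higher in BDNF against Control and 6 of each in H2BE-BDNF against H2BE, while 5 ligands and 10 receptors were lower in the first comparison and 13 ligands and 15 receptors in the second. In bulk RNA a lower level can be fewer cells of a type or less RNA per cell, and these cannot be told apart.

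**Figure D2:**
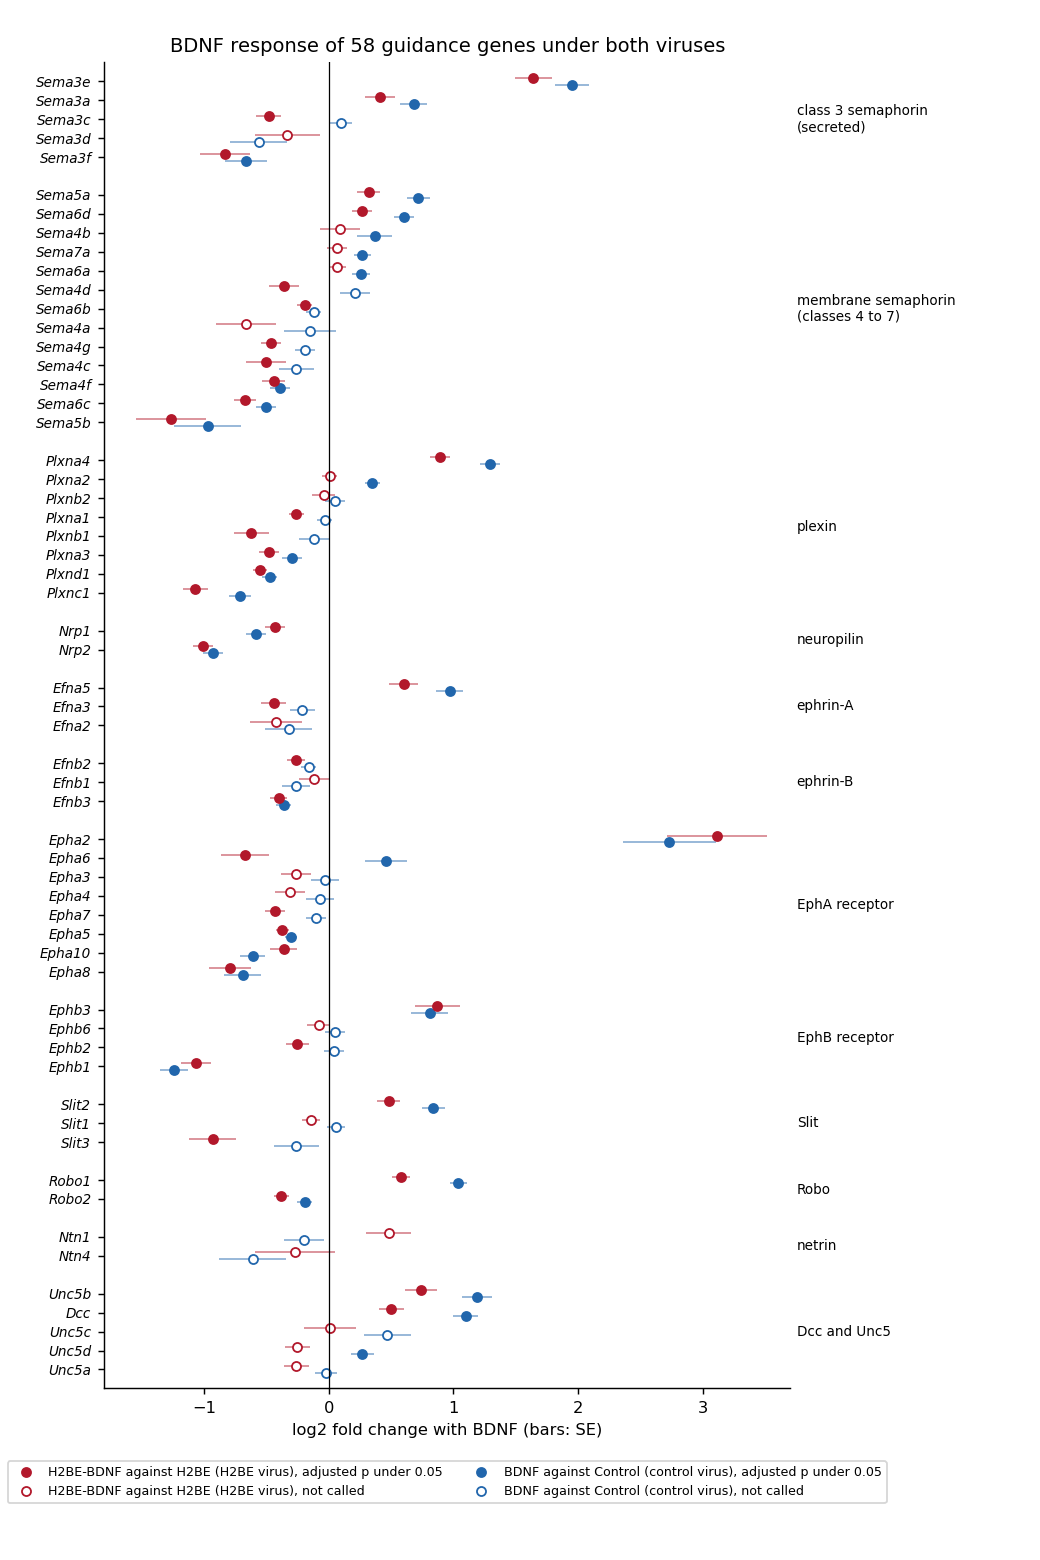
Log2 fold change with BDNF (x axis, bars SE) of the 58 tested guidance genes, grouped by role; red points are H2BE-BDNF against H2BE and blue points BDNF against Control, filled where the adjusted p is under 0.05. Epha2 lies farthest to the right at 3.11 and 2.73, and most genes have the red point to the left of the blue one.

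Promoters are shown for 3 genes with a motif, for the strongest riser among ligands, and for the receptors that fell most under the control virus. The 3 genes with a motif were all higher with BDNF. Motif matches on genes that were lower are named below and not shown. The sequences are from RefSeq (build GRCm38.p6), which gave 72 promoters for 56 of the 66 genes, and each runs 5′ to 3′ on the gene's strand and ends at the RefSeq start site or, for Slit2 and Nrp2, before the earlier start of a GENCODE M21 exon. Capitals mark a motif match. Epha2 (chr4:141300971-141301220, plus strand) holds a cAMP response element 33 to 26 bases before the start. Slit2 (chr5:47982905-47983137, plus strand) holds an EGR motif 65 to 57 bases before the start. Robo1 (chr16:72662899-72663148, plus strand, at a start within the gene's GENCODE span) holds a serum response element 60 to 51 bases before the start. Sema3e (chr5:14025026-14025275, plus strand), Nrp2 (chr1:62703067-62703284, plus strand) and Ephb1 (chr9:102354694-102354943, minus strand) hold none of the 4 motifs searched.
Epha2: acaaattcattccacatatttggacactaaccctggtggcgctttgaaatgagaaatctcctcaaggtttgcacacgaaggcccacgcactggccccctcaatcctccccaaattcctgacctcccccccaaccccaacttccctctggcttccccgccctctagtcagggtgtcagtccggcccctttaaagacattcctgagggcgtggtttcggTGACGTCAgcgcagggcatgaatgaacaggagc
Slit2: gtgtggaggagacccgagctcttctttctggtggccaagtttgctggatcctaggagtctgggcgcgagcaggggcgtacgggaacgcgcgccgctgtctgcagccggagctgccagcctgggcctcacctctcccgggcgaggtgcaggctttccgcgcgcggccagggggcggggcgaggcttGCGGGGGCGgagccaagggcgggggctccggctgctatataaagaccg
Robo1: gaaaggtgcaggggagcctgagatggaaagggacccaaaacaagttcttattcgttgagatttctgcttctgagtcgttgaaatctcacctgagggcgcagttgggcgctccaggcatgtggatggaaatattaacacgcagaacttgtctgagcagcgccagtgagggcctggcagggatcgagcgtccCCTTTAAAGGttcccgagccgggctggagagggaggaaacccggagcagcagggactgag
Sema3e: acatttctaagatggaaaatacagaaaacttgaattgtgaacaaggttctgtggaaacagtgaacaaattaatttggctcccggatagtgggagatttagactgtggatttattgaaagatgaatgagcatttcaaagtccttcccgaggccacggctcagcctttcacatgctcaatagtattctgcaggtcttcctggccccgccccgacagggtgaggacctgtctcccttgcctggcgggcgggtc
Nrp2: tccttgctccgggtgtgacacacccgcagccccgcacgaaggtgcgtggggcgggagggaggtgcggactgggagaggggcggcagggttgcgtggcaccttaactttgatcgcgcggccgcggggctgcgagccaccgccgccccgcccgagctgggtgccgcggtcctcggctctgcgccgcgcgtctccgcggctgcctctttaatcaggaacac
Ephb1: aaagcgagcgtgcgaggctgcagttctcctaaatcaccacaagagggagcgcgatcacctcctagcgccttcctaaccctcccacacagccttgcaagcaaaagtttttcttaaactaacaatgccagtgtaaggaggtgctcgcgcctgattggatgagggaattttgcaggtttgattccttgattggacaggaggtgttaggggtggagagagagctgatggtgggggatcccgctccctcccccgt
Both strands of the 250 bases before each start were searched. TGACGTCA, the cAMP response element, was found in 1 of the 72 guidance promoters and in 1.55% of 32851 promoters. TGANTCA, the AP-1 motif, was found in 3 (Sema4c, Sema4d and Sema6b) and in 6.75% of all. GCGGGGGCG, the EGR motif, was found in 6 (Epha1, Epha8, Plxnb2, Sema4g, Sema5a and Slit2) and in 2.57% of all. The serum response element was found in 2 (Robo1 and Sema4d) and in 1.47% of all. Among genes with an EGR match, Slit2 and Sema5a were higher with BDNF and Epha8 was lower under both viruses, and Sema4g was lower under the H2BE virus alone. The 3 genes with an AP-1 match were lower under the H2BE virus alone. The matches thus lie on genes of both directions, and a match is not a measured binding site.

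Secreted semaphorins moved apart from each other. Sema3e (ENSMUSG00000063531, chromosome 5, 14025276 to 14256689, plus strand), the ligand of Plxnd1, had 102 and 102 CPM in H2BE-BDNF, against 30.8 and 34.6 CPM in H2BE. It had 100 and 138 CPM in BDNF, against 29.3 and 31.8 CPM in Control. All 4 samples with BDNF were thus above all 4 without it, by 3.12-fold under the H2BE virus (log2 fold change 1.64, SE 0.15, adjusted p = 8.74e-06) and 3.88-fold under the control virus (1.95, SE 0.14, adjusted p = 6.06e-07). Sema3a, the collapsing ligand of Nrp1, was 1.33-fold higher in H2BE-BDNF (47.2 ± 1.4 CPM) than in H2BE (35.8 ± 6.7 CPM), with an adjusted p of 0.0157. It was 1.60-fold higher in BDNF (49.0 ± 3.9 CPM) than in Control (29.9 ± 1.5 CPM), with an adjusted p of 0.000143. Sema3f, a ligand of Nrp2, went the other way. It had 9.07 and 9.8 CPM in H2BE-BDNF, against 17.7 and 15.4 CPM in H2BE, and 12.5 and 8.42 CPM in BDNF, against 16.0 and 17.0 CPM in Control. The groups did not overlap, and Sema3f was 1.78-fold lower under the H2BE virus (adjusted p = 0.0052) and 1.58-fold lower under the control virus (adjusted p = 0.00806). Sema3c, known for its part in the development of the heart's outflow tract, had 27.7 and 26.2 CPM in H2BE-BDNF, against 38.0 and 37.0 CPM in H2BE, and 34.0 and 33.7 CPM in BDNF, against 30.5 and 31.3 CPM in Control. It was lower under the H2BE virus (log2 fold change -0.48, SE 0.10, adjusted p = 0.00238) and was not called under the control virus (0.10, adjusted p = 0.449). Sema3d was not called under either virus. The call of Sema3f was lost without H2BE replicate 2 (log2 fold change -0.72, adjusted p = 0.0765) and without BDNF replicate 2 (-0.37, 0.0927). The call of Sema3a under the H2BE virus was lost without H2BE replicate 2 (0.21, 0.346), without H2BE-BDNF replicate 2 (0.38, 0.0907) and with DESeq2 (adjusted p = 0.0515).

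More membrane semaphorins were lower than higher with BDNF under the H2BE virus. Of 13 tested, 2 were higher and 7 lower in H2BE-BDNF against H2BE, where 13.5% and 12.4% of all genes were higher and lower. In BDNF against Control 5 were higher and 3 lower, where 16.8% and 14.7% of all genes were. Sema5b (ENSMUSG00000052133, chromosome 16, 35541145 to 35664732, plus strand), a repellent known from the retina, had 4.29 and 4.75 CPM in H2BE-BDNF, against 12.8 and 8.31 CPM in H2BE. It had 4.77 and 2.7 CPM in BDNF, against 7.7 and 6.43 CPM in Control. The BDNF samples lay below the others under each virus, at a log2 fold change of -1.26 (SE 0.28, adjusted p = 0.00278) under the H2BE virus and -0.97 (SE 0.27, adjusted p = 0.0105) under the control virus. Its relative Sema5a was higher, at 0.32 under the H2BE virus (adjusted p = 0.0188) and 0.72 under the control virus (adjusted p = 5.95e-06). Sema6d, a ligand of Plxna1, was also higher under both, at 0.27 (adjusted p = 0.0252) and 0.60 (adjusted p = 1.85e-05). Sema6c was lower under both, at -0.67 (adjusted p = 4.28e-05) and -0.50 (adjusted p = 0.000167), and so was Sema4f, at -0.44 (adjusted p = 0.00131) and -0.39 (adjusted p = 0.00103). Under the H2BE virus Sema4g fell by 0.46 on the log2 scale (adjusted p = 0.000666), Sema4c by 0.50 (0.0251), Sema4d by 0.36 (0.0372) and Sema6b by 0.19 (0.0417), and none of these 4 was called under the control virus. Under the control virus Sema4b was higher by 0.37 (adjusted p = 0.0479), Sema7a by 0.27 (0.0101) and Sema6a, a ligand of Plxna2 and Plxna4, by 0.26 (0.00829), and none of these 3 was called under the H2BE virus. Sema4a was called under neither virus. Of the exon bases of Sema4c 7.27% are shared with an antisense gene, and whether the counting used strand is not given in the sources used here.

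Many of these calls were lost when 1 library was left out, several with a fold change of about the same size. Under the H2BE virus Sema5b lost its call without H2BE replicate 2 (adjusted p = 0.108), as did Sema4c (0.472), Sema4d (0.239), Sema5a (0.126), Sema6b (0.172) and Sema6d (0.0914). Without H2BE replicate 3 the losses were Sema4d (adjusted p = 0.0654), Sema5a (0.0829), Sema6b (0.112) and Sema6d (0.138). Without H2BE-BDNF replicate 2 they were Sema4c (0.224), Sema4d (0.151), Sema5a (0.0719) and Sema6b (0.257), and without H2BE-BDNF replicate 3 they were Sema4d (0.106), Sema5a (0.0997), Sema6b (0.0745) and Sema6d (0.163). Over these losses the log2 fold change was 0.30 to 0.34 for Sema5a (0.32 with all libraries), 0.22 to 0.30 for Sema6d (0.27), -0.41 to -0.31 for Sema4d (-0.36) and -0.22 to -0.15 for Sema6b (-0.19), while that of Sema4c was -0.24 and -0.36 (-0.50) and that of Sema5b was -0.89 (-1.26). DESeq2 called none of Sema4c, Sema4d, Sema5a, Sema6b and Sema6d in that comparison, at adjusted p-values of 0.0776 to 0.129. With edgeR after a correction for exon length and GC content, Sema6b was at -0.06 (adjusted p = 0.463) and Sema4d at -0.32 (0.0578). Sema4c, Sema5a, Sema5b and Sema6d kept their calls there. Sema6b was also not called with no filter on low counts (0.0676). Under the control virus Sema5b lost its call without Control replicate 1 (0.149) or BDNF replicate 2 (0.0901), Sema7a without the same libraries (0.215 and 0.0516), and Sema6a without Control replicate 1 (0.214) or after a correction for exon length and GC content (0.0532). Sema4b was no longer called without Control replicate 1 (0.314), Control replicate 2 (0.0877), BDNF replicate 1 (0.302) or any 1 of the 4 libraries with the H2BE virus (0.053 to 0.0595), nor by DESeq2 (0.198).

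Among the receptors of semaphorins, Plxna4 rose while both neuropilins fell. Plxna4 (ENSMUSG00000029765, chromosome 6, 32144268 to 32588192, minus strand), which signals for Sema3a and Sema6a, had 565 and 519 CPM in H2BE-BDNF, against 284 and 298 CPM in H2BE. It had 570.0 and 681 CPM in BDNF, against 245 and 252 CPM in Control. Every BDNF sample was above every sample without BDNF, at 1.86-fold under the H2BE virus (log2 fold change 0.89, SE 0.08, adjusted p = 3.45e-06) and 2.45-fold under the control virus (1.29, SE 0.08, adjusted p = 5.92e-08). Nrp2 (ENSMUSG00000025969, chromosome 1, 62703285 to 62818695, plus strand), the neuropilin that binds Sema3f, had 80.5 and 95.2 CPM in H2BE-BDNF, against 182 and 170.0 CPM in H2BE. It had 86.8 and 79.6 CPM in BDNF, against 148 and 163 CPM in Control. Its BDNF samples did not reach the others, and it was 2.02-fold lower under the H2BE virus (log2 fold change -1.01, SE 0.08, adjusted p = 1.09e-07) and 1.90-fold lower under the control virus (-0.93, SE 0.08, adjusted p = 1.02e-07). Nrp1, the neuropilin of Sema3a, was 1.35-fold lower in H2BE-BDNF (64.9 ± 2.7 CPM) than in H2BE (86.9 ± 3.4 CPM) and 1.49-fold lower in BDNF (57.0 ± 0.54 CPM) than in Control (83.6 ± 7.4 CPM), with adjusted p-values of 0.00083 and 1.91e-05. Plxnc1, the receptor of Sema7a, had 38.5 and 42.1 CPM in H2BE-BDNF, against 87.7 and 79.7 CPM in H2BE, and 51.2 and 45.6 CPM in BDNF, against 71.8 and 85.2 CPM in Control. This was 2.10-fold lower under the H2BE virus (adjusted p = 7.21e-07) and 1.64-fold lower under the control virus (adjusted p = 1.33e-05), with no overlap between samples. Plxnd1, the receptor of Sema3e, was 1.46-fold lower under the H2BE virus (236 ± 4.1 CPM in H2BE-BDNF, 343 ± 27 CPM in H2BE, adjusted p = 5.52e-06) and 1.39-fold lower under the control virus (221 ± 14 CPM in BDNF, 303 ± 4.3 CPM in Control, adjusted p = 1.39e-05). Ligand and receptor therefore differed in direction in the pairs Sema3e and Plxnd1 and Sema3a and Nrp1, and shared it in the pair Sema3f and Nrp2.

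Of the other plexins, Plxna3 was lower under both viruses, by 0.48 on the log2 scale under the H2BE virus (adjusted p = 0.000249) and by 0.29 under the control virus (adjusted p = 0.00704), the second a call lost without BDNF replicate 2 (log2 fold change -0.19, adjusted p = 0.0751). Plxna1 fell by 0.26 (adjusted p = 0.00315) and Plxnb1, a receptor of Sema4d, by 0.62 (adjusted p = 0.00255) in H2BE-BDNF against H2BE alone. The call of Plxnb1 was lost without H2BE replicate 2 (-0.41, 0.107), and 10.7% of the exon bases of Plxna1 are shared with an antisense gene. Plxna2 was 1.28-fold higher in BDNF (411 ± 16 CPM) than in Control (310.0 ± 22 CPM), with an adjusted p of 0.000332, and averaged 373 ± 8.3 CPM in H2BE-BDNF and 370.0 ± 26 CPM in H2BE (log2 fold change 0.01, adjusted p = 0.966). Plxnb2 was not called in either comparison.

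**Figure D3:**
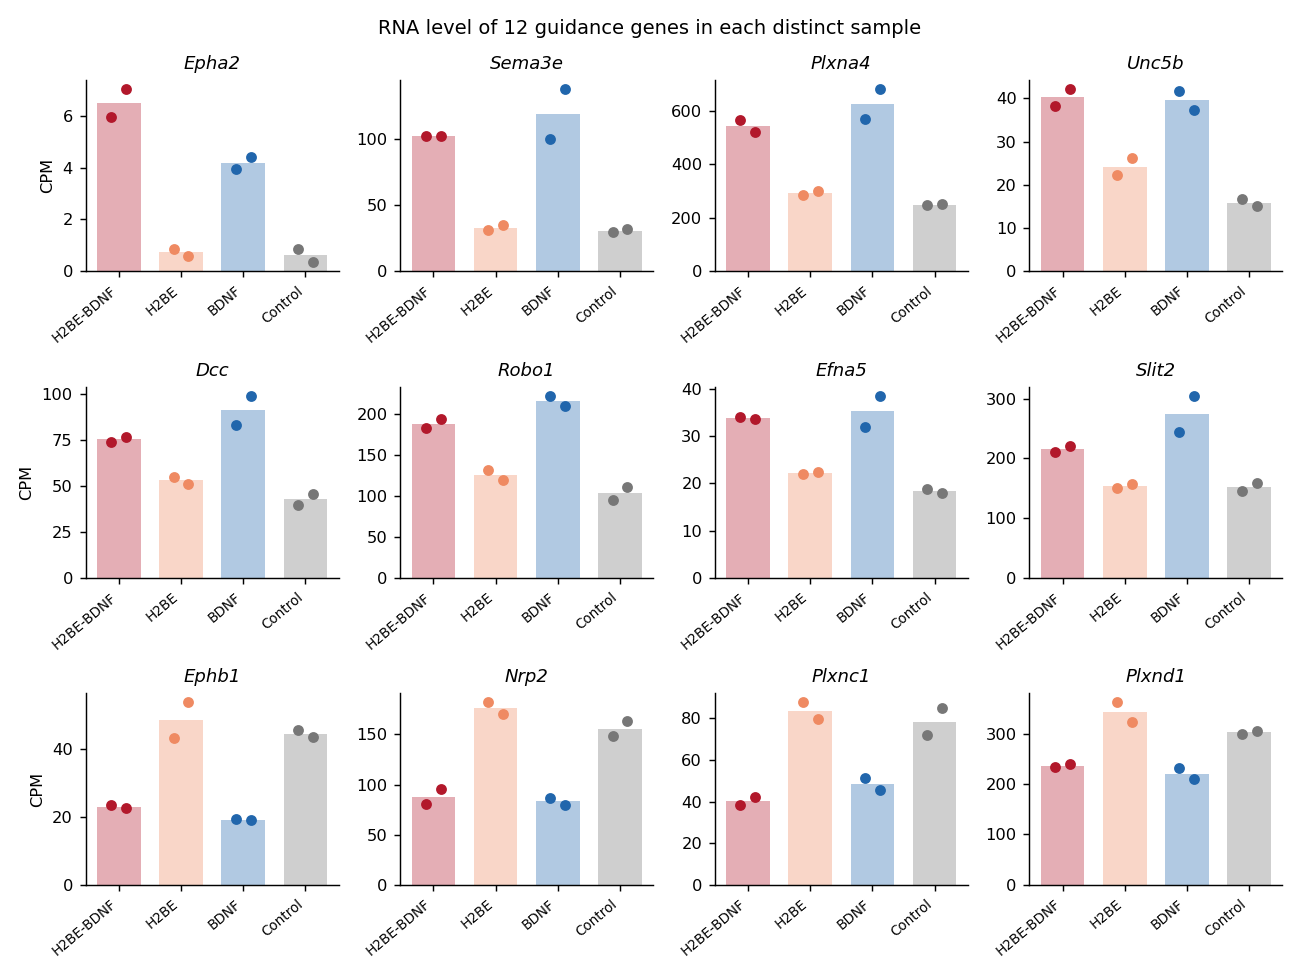
Level in CPM (y axes, each starting at 0) of 12 guidance genes in each distinct sample; points are samples and bars group means (n = 2), with H2BE-BDNF, H2BE, BDNF and Control from left to right. The upper 8 genes lie higher in both groups with BDNF than in either group without it, and Ephb1, Nrp2, Plxnc1 and Plxnd1 lie lower.

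Among the ephrins, Efna5 rose and Efnb3 fell under both viruses. Efna5 (ENSMUSG00000048915, chromosome 17, 62604184 to 62881317, minus strand), which binds EphA receptors and guides topographic maps, had 34.0 and 33.6 CPM in H2BE-BDNF, against 22.1 and 22.5 CPM in H2BE. It had 32.0 and 38.6 CPM in BDNF, against 18.9 and 17.9 CPM in Control. Samples with BDNF lay above the rest, by 1.51-fold under the H2BE virus (log2 fold change 0.60, SE 0.12, adjusted p = 0.00119) and 1.96-fold under the control virus (0.97, SE 0.11, adjusted p = 2.83e-06). Efnb3, the most abundant guidance gene per length, was 1.32-fold lower in H2BE-BDNF (240.0 ± 9.1 CPM) than in H2BE (316 ± 3.5 CPM) and 1.28-fold lower in BDNF (232 ± 27 CPM) than in Control (292 ± 6.3 CPM), with adjusted p-values of 0.000231 and 0.000419. Efnb2 fell by 0.26 on the log2 scale (adjusted p = 0.00911) and Efna3 by 0.44 (adjusted p = 0.00448) under the H2BE virus, and neither was called under the control virus. Efna2 and Efnb1 were called under neither. The call of Efnb2 was lost without H2BE replicate 3 (-0.23, adjusted p = 0.0707) and that of Efna3 without H2BE-BDNF replicate 2 (-0.34, 0.0777), and 14% of the exon bases of Efna3 are shared with an antisense gene.

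Eph receptors held both the largest rise and the largest fall among guidance genes under the control virus. Epha2 (ENSMUSG00000006445, chromosome 4, 141301240 to 141329384, plus strand), an EphA receptor best known from epithelia, had 5.96 and 7.06 CPM in H2BE-BDNF, against 0.844 and 0.593 CPM in H2BE. It had 3.97 and 4.42 CPM in BDNF, against 0.856 and 0.348 CPM in Control. Its levels without BDNF were close to the floor, with 9 counts in the 2 H2BE libraries and 13 in the 2 Control libraries, against 99 in H2BE-BDNF and 104 in BDNF. Epha2 passed the filter on low counts only through its samples with BDNF, so its test is not independent of that filter. The rise was 8.61-fold under the H2BE virus (log2 fold change 3.11, SE 0.40, adjusted p = 2.02e-05) and 6.63-fold under the control virus (2.73, SE 0.37, adjusted p = 2.35e-05). Ephb1 (ENSMUSG00000032537, chromosome 9, 101922128 to 102354693, minus strand), which turns retinal axons away from the midline at the optic chiasm, had 23.6 and 22.5 CPM in H2BE-BDNF, against 43.2 and 53.8 CPM in H2BE. It had 19.3 and 19.1 CPM in BDNF, against 45.6 and 43.5 CPM in Control. Samples with and without BDNF did not overlap, and Ephb1 was 2.09-fold lower under the H2BE virus (log2 fold change -1.06, SE 0.12, adjusted p = 4.18e-06) and 2.36-fold lower under the control virus (-1.24, SE 0.11, adjusted p = 1.93e-07). Ephb3, a receptor of B-type ephrins that acts in commissural axon tracts, had 19.2 and 20.6 CPM in H2BE-BDNF, against 10.7 and 11.1 CPM in H2BE, and 18.7 and 24.4 CPM in BDNF, against 11.5 and 11.5 CPM in Control. Its BDNF samples were all above the others, with adjusted p-values of 0.00176 under the H2BE virus (1.82-fold) and 0.000729 under the control virus (1.75-fold).

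The remaining Eph calls were smaller. Epha8 had 10.5 and 10.8 CPM in H2BE-BDNF, against 20.5 and 15.6 CPM in H2BE, and 12 and 10.8 CPM in BDNF, against 18.8 and 16.2 CPM in Control. Samples with BDNF lay below the rest, at log2 fold changes of -0.79 (adjusted p = 0.00252) and -0.69 (adjusted p = 0.00214), calls lost without H2BE replicate 2 (-0.56, 0.103) and without Control replicate 1 (-0.56, 0.079). Epha5, the Eph receptor with the highest level per length in Control, was 1.29-fold lower in H2BE-BDNF (339 ± 1.4 CPM) than in H2BE (436 ± 3.0 CPM) and 1.23-fold lower in BDNF (353 ± 0.67 CPM) than in Control (426 ± 4.1 CPM), with adjusted p-values of 2.65e-05 and 0.000112. Epha10, which lacks kinase activity, was lower at -0.36 (adjusted p = 0.0241) and -0.61 (adjusted p = 0.000158). Its call under the H2BE virus was lost without H2BE replicate 3 (-0.28, 0.178) or H2BE-BDNF replicate 3 (-0.30, 0.151), with DESeq2 (0.0749) and after length and GC correction (0.101). Epha7, which acts in the topography of corticothalamic axons, and Ephb2, a receptor that organises excitatory synapses, were called under the H2BE virus alone, at -0.43 (adjusted p = 0.000893) and -0.25 (adjusted p = 0.0381). The call of Ephb2 was lost without H2BE replicate 2 (adjusted p = 0.36) or either H2BE-BDNF library (0.146 without replicate 2, 0.12 without replicate 3), with DESeq2 (0.115) and after length and GC correction (0.104). Epha3, Epha4 and the kinase-inactive Ephb6 were called in neither comparison.

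Epha6, an EphA receptor of brain, was the 1 guidance gene called in opposite directions. It had 10.1 and 12 CPM in H2BE-BDNF, against 18 and 16.8 CPM in H2BE, which is 1.59-fold lower (log2 fold change -0.67, SE 0.19, adjusted p = 0.0128). It had 12.5 and 17.5 CPM in BDNF, against 10.5 and 10.8 CPM in Control, which is 1.38-fold higher (0.46, SE 0.17, adjusted p = 0.0469). The groups did not overlap in either pair, and BDNF replicate 2 stood at the level of the H2BE samples while BDNF replicate 1 did not. Without H2BE replicate 2 or H2BE-BDNF replicate 2 the fall was not called (adjusted p = 0.108 and 0.117). The rise was not called without Control replicate 1 (adjusted p = 0.222), Control replicate 2 (0.12), BDNF replicate 2 (0.423), H2BE replicate 2 (0.0602) or H2BE replicate 3 (0.0576), nor with DESeq2 (0.177), and without BDNF replicate 2 its log2 fold change was 0.20. Over all genes, 0.223% were called in opposite directions.

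In the Slit and Robo system Slit2 and Robo1 rose together. Slit2 (ENSMUSG00000031558, chromosome 5, 47983138 to 48307733, plus strand), a large secreted repellent, had 210.0 and 220.0 CPM in H2BE-BDNF, against 151 and 157 CPM in H2BE. It had 244 and 305 CPM in BDNF, against 145 and 159 CPM in Control. All BDNF samples were above all others, by 1.39-fold under the H2BE virus (log2 fold change 0.48, SE 0.09, adjusted p = 0.00125) and 1.79-fold under the control virus (0.84, SE 0.09, adjusted p = 3.44e-06). Robo1 (ENSMUSG00000022883, chromosome 16, 72308306 to 73046095, plus strand), its receptor, had 183 and 193 CPM in H2BE-BDNF, against 131 and 119 CPM in H2BE. It had 222 and 209 CPM in BDNF, against 94.5 and 111 CPM in Control. The groups ran from BDNF at the top through H2BE-BDNF and H2BE to Control with no overlap between neighbours, though the step between H2BE-BDNF and BDNF was not called (log2 fold change -0.16), and the rise was 1.49-fold under the H2BE virus (log2 fold change 0.58, SE 0.07, adjusted p = 1.88e-05) and 2.05-fold under the control virus (1.04, SE 0.07, adjusted p = 1.07e-08). Slit3 had 12.4 and 12 CPM in H2BE-BDNF, against 26.9 and 18.6 CPM in H2BE, and averaged 13.0 ± 2.9 CPM in BDNF and 15.6 ± 1.2 CPM in Control. It was 1.90-fold lower under the H2BE virus (log2 fold change -0.93, SE 0.19, adjusted p = 0.00182), a call lost without H2BE replicate 2 (-0.62, 0.0886), and was not called under the control virus, where samples overlapped. Robo2 was lower under both viruses, at -0.38 (334 ± 0.77 CPM in H2BE-BDNF, 433 ± 16 CPM in H2BE, adjusted p = 0.000214) and -0.19 (368 ± 6.7 CPM in BDNF, 404 ± 41 CPM in Control, adjusted p = 0.0232). The second call was lost without Control replicate 2 (-0.11, 0.29) or BDNF replicate 1 (-0.14, 0.106) and with DESeq2 (0.053). Slit1 was called in neither comparison.

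The netrin receptors Unc5b and Dcc were higher with BDNF, and the netrins were not called. Unc5b (ENSMUSG00000020099, chromosome 10, 60762593 to 60831581, minus strand), a repulsive netrin receptor, had 38.3 and 42.2 CPM in H2BE-BDNF, against 22.2 and 26.1 CPM in H2BE. It had 41.6 and 37.4 CPM in BDNF, against 16.6 and 15 CPM in Control. Samples with BDNF lay above the rest, by 1.67-fold under the H2BE virus (log2 fold change 0.74, SE 0.13, adjusted p = 0.000327) and 2.28-fold under the control virus (1.19, SE 0.12, adjusted p = 8.36e-07). Dcc (ENSMUSG00000060534), the attractive receptor, had 74.1 and 76.5 CPM in H2BE-BDNF, against 55.1 and 50.8 CPM in H2BE. It had 83.3 and 99.1 CPM in BDNF, against 39.7 and 45.7 CPM in Control. No sample without BDNF reached those with it, and Dcc was 1.41-fold higher under the H2BE virus (log2 fold change 0.50, SE 0.10, adjusted p = 0.00184) and 2.15-fold higher under the control virus (1.10, SE 0.10, adjusted p = 1.82e-07). Unc5d, a receptor of migrating cortical neurons, was higher under the control virus alone (0.27, adjusted p = 0.0235), which was not called when Control replicate 1 (0.15, 0.388) or BDNF replicate 2 (0.15, 0.213) was left out, or with DESeq2 (0.0674). Unc5a and Unc5c were called under neither virus. Ntn1, the attractant itself, averaged 15.3 ± 0.64 CPM in H2BE-BDNF and 11.1 ± 1.1 CPM in H2BE (log2 fold change 0.48, adjusted p = 0.0619), and 11.6 ± 1.7 CPM in BDNF and 13.8 ± 0.63 CPM in Control (-0.20, adjusted p = 0.367). Ntn4 averaged 3.39 to 5.29 CPM in the 4 groups and was not called.

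The responses under both viruses had 12 genes higher in common (Dcc, Efna5, Epha2, Ephb3, Plxna4, Robo1, Sema3a, Sema3e, Sema5a, Sema6d, Slit2 and Unc5b) and 15 lower in common (Efnb3, Epha5, Epha8, Epha10, Ephb1, Nrp1, Nrp2, Plxna3, Plxnc1, Plxnd1, Robo2, Sema3f, Sema4f, Sema5b and Sema6c). These are 20.7% and 25.9% of the 58 genes tested, where 8.66% and 7.69% of all genes were higher or lower under both. Of all genes, 1822 were higher under the H2BE virus, and 1165 of these were also higher under the control virus. Lower under the control virus were 1971, and 1035 of these were also lower under the H2BE virus. Among guidance genes, all 12 higher under the H2BE virus and all 15 lower under the control virus were called alike under the other virus. A further 5 (8.62%) were higher under the control virus alone, where 8% of all genes were, and 12 (20.7%) were lower under the H2BE virus alone, where 4.54% of all genes were. Epha6 was called in opposite directions, and 13 (22.4%) were called under neither virus, where 59.2% of all genes were. The log2 fold change with BDNF was lower under the H2BE virus at 49 of the 58 genes (84.5%), against 51.1% of all genes. After a correction for exon length and GC content it was lower at 44 of the 58. The pairs of libraries behind the 2 responses are separate, and the H2BE libraries and the Control libraries stand in the comparison of the viruses below as well.

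**Figure D4:**
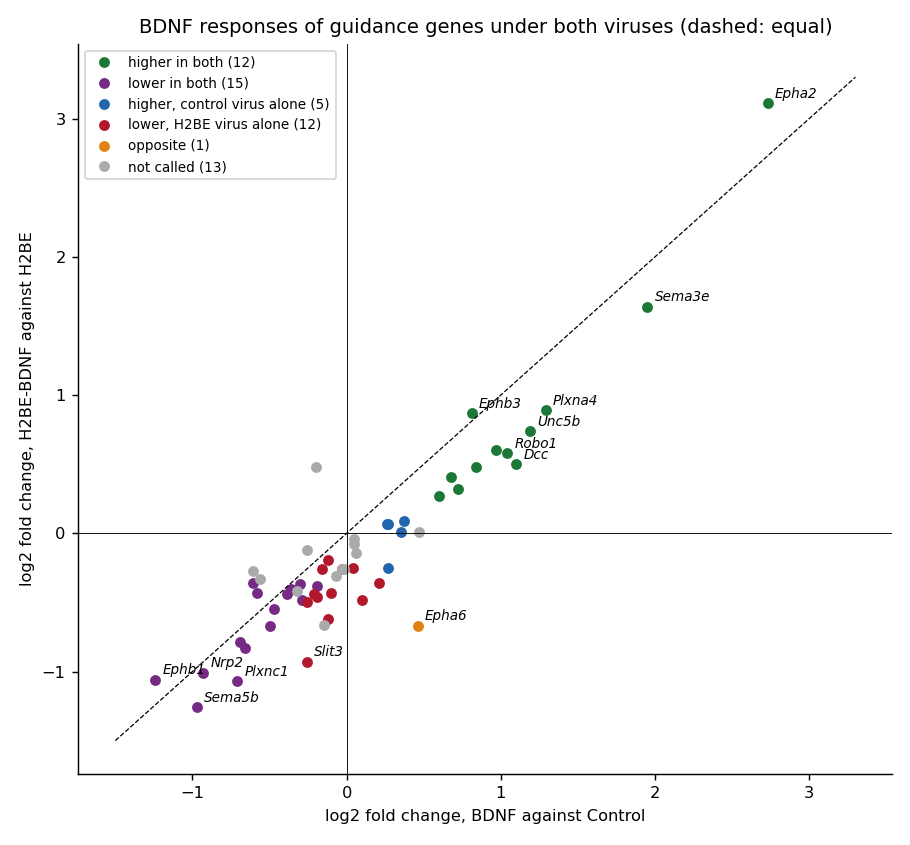
Log2 fold change with BDNF under the H2BE virus (y axis, H2BE-BDNF against H2BE) and under the control virus (x axis, BDNF against Control) for the 58 tested guidance genes, coloured by the calls in the 2 comparisons; the dashed line marks equal values. Most points lie under the line, 49 of 58, and Epha6 is alone in the region of opposite calls.

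Genes that work with guidance receptors were read off the same fits. Of a list of 75 co-receptors and effectors, 74 were tested, and 17 were higher and 18 lower in H2BE-BDNF against H2BE, where 13.5% and 12.4% of all genes were higher and lower. In BDNF against Control 23 were higher and 16 lower, where 16.8% and 14.7% of all genes were. Mical2, an oxidase of actin filaments whose family acts below plexins, averaged 349 ± 11 CPM in H2BE-BDNF and 103 ± 1.3 CPM in H2BE (log2 fold change 1.76, adjusted p = 1.32e-11), and 357 ± 15 CPM in BDNF and 82.8 ± 1.9 CPM in Control (2.08, adjusted p = 5.08e-13). Gfra1, a receptor subunit for the neurotrophic factor GDNF, rose by 1.75 (adjusted p = 9.33e-08) and 1.82 (adjusted p = 9.97e-09). Rock2, a kinase below the small GTPase RhoA, rose by 0.77 (adjusted p = 3.46e-05) and 0.91 (adjusted p = 3.44e-06). Rhoa itself rose by 0.61 (adjusted p = 5.6e-06) and 0.32 (adjusted p = 0.00116), and Dscaml1, a homophilic adhesion molecule of the DSCAM family, by 0.35 (adjusted p = 0.00287) and 0.74 (adjusted p = 7.32e-07). Ntng2, which encodes netrin-G2, a lipid-anchored relative of netrins, fell by 0.64 (adjusted p = 7.38e-06) and 0.50 (adjusted p = 3.66e-05). The median log2 fold change of the list was 0.02 under the H2BE virus and 0.08 under the control virus.

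Without BDNF, the H2BE virus gave few calls among guidance genes. In H2BE against Control 2 of 58 were higher, where 1.54% of all genes were higher. Called lower were 0, where 0.989% of all genes were lower, and 2.53% of all genes were called. An unadjusted p under 0.05 was found at 23 of the 58, and at 2454 of all 13452 genes tested. DESeq2 called 3 guidance genes. Sema4d, a membrane semaphorin whose receptor is Plxnb1, had 36.4 and 33.8 CPM in H2BE, against 23.3 and 25.2 CPM in Control. Both H2BE samples were above both Control samples (1.47-fold, log2 fold change 0.56, SE 0.12, adjusted p = 0.0232). It had 27.2 and 27.8 CPM in H2BE-BDNF, against 31.3 and 25.1 CPM in BDNF, with overlap (-0.01, adjusted p = 0.985). Robo1, with the values given above, was 0.30 higher on the log2 scale in H2BE than in Control (SE 0.08, adjusted p = 0.0471). The highest log2 fold change belonged to Epha6, at 0.69 (SE 0.18, adjusted p = 0.0512), which was not called. The log2 fold change was above 0 at 51 of 58 guidance genes (87.9%), against 50.1% of all genes, with a median of 0.14 against 0.00, and all 8 plexins were above 0, at 0.11 to 0.27. After the correction for exon length and GC content 46 were above 0, the median was 0.09 and no guidance gene was called. Sema4d was then at 0.49 (adjusted p = 0.0807) and Robo1 at 0.15 (adjusted p = 0.357). With a term for replicate number in the fit 46 guidance genes were above 0. With that term and the correction 38 were above 0 and 20 below, at a median of 0.09.

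The count of calls in H2BE against Control changed with the libraries used. It was 0 without Control replicate 1 or without H2BE replicate 2, 1 without either H2BE-BDNF library, 16 without either BDNF library and 3 without Control replicate 2. Sema4d was lost without Control replicate 1 (adjusted p = 0.36), H2BE replicate 2 (0.285) or H2BE replicate 3 (0.0518), at log2 fold changes of 0.49, 0.51 and 0.61. Robo1 was lost without Control replicate 1 (0.523), without either H2BE library (0.401 without replicate 2, 0.0538 without replicate 3) and without either H2BE-BDNF library (0.0517 and 0.0509). Its log2 fold change was then 0.18 without Control replicate 1, 0.23 and 0.36 without H2BE replicates 2 and 3, and 0.30 without either H2BE-BDNF library. Of the 74 tested genes of the partner list 7 were higher and 1 lower in H2BE against Control, where 1.54% and 0.989% of all genes were. That count of 8 was 0 without Control replicate 1 or H2BE replicate 2, 5 without H2BE replicate 3 and 18 without either BDNF library. They were led by Dscam, a netrin receptor of the immunoglobulin family (0.42, adjusted p = 0.00691), the adhesion molecule L1cam (0.30, adjusted p = 0.012), Srgap3 (0.29, adjusted p = 0.0148) and Dscaml1 (0.39, adjusted p = 0.0189).

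In BDNF-treated neurons the virus made no called difference to guidance genes. In H2BE-BDNF against BDNF 0 of 58 were called, where 0.0297% of all genes were called, 0.0149% in each direction. An unadjusted p under 0.05 was found at 15 of the 58, and at 1516 of all 13452 genes tested. DESeq2 called 0 guidance genes. Without BDNF replicate 1 the count was 7 among guidance genes and 11 in the partner list, whose count was otherwise 0. Log2 fold changes ran between -0.44 (Epha6) and 0.58 (Epha2), with a median of -0.05.

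**Figure D5:**
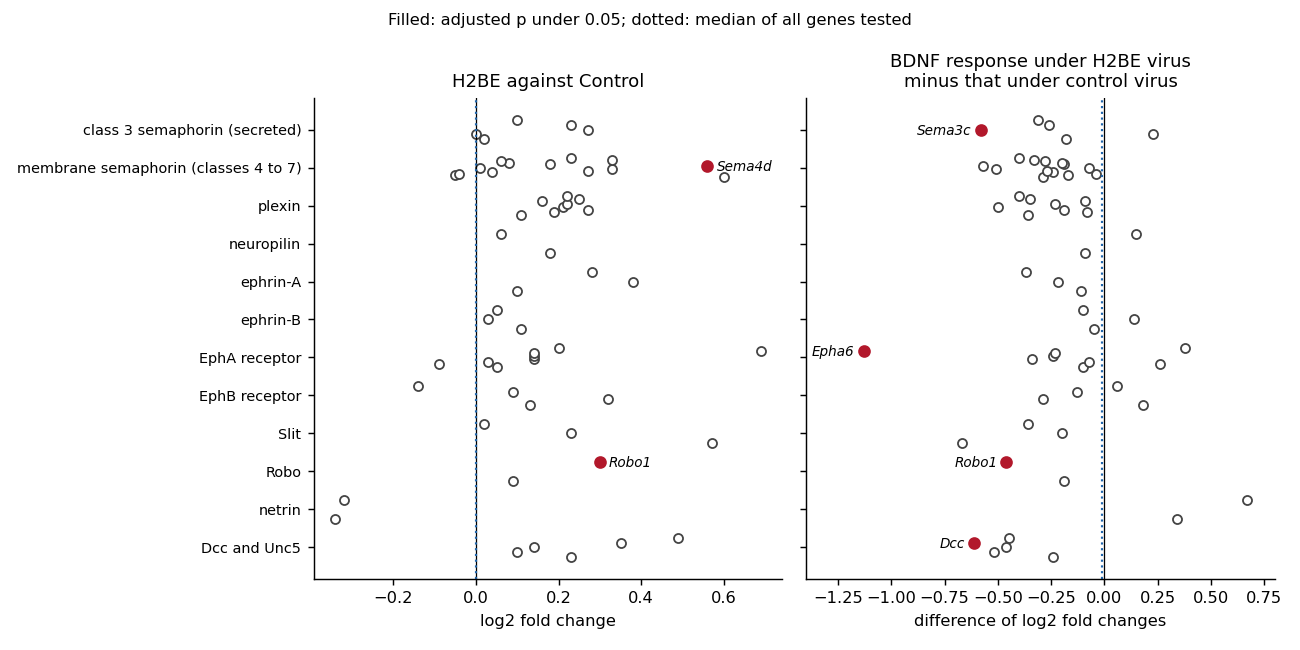
Log2 fold change of the 58 tested guidance genes in H2BE against Control (left, x axis) and difference between the BDNF responses, H2BE virus minus control virus, on the log2 scale (right, x axis), by role (y axis); filled points have an adjusted p under 0.05 and the dotted line is the median of all genes. On the left 51 of 58 points lie above 0, and on the right 49 of 58 lie below 0.

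The BDNF responses themselves differed at 4 guidance genes, where 1.42% of all genes were called and 0.996% were called lower. In each the response under the H2BE virus was the lower one. An unadjusted p under 0.05 was found at 22 of 58 guidance genes, and at 2250 of all 13452 genes tested. The difference was -1.13 for Epha6 (SE 0.25, adjusted p = 0.0368), -0.46 for Robo1 (SE 0.10, adjusted p = 0.0368), -0.61 for Dcc (SE 0.14, adjusted p = 0.0441) and -0.58 for Sema3c (SE 0.14, adjusted p = 0.0492). Robo1 and Dcc thus rose less with BDNF under the H2BE virus, and Sema3c and Epha6 fell there. Of the differences not called the 3 lowest were Slit3 at -0.67 (adjusted p = 0.216), Sema4d at -0.57 (0.108) and Unc5d at -0.52 (0.0554). The median difference was -0.23 over guidance genes and -0.01 over all genes, and the H2BE and Control libraries enter it as they enter the comparison of the viruses without BDNF. After the correction for exon length and GC content the medians were -0.13 and -0.01. The count of 4 was 0 after length and GC correction and without Control replicate 1, H2BE replicate 2 or either H2BE-BDNF library, and it was 2 without H2BE replicate 3 and 12 without BDNF replicate 1. In the partner list Srgap3 (-0.36, adjusted p = 0.0357) and Srgap1 (-0.37, adjusted p = 0.0492), whose proteins act below Robo receptors, were lower under the H2BE virus, and Cfl1, the actin-severing protein cofilin, was higher (0.30, adjusted p = 0.0357). These 3 calls in the list were 0 without Control replicate 1, H2BE replicate 2 or either H2BE-BDNF library, 1 without Control replicate 2 and 14 without BDNF replicate 1.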

How the data were processed

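RNA from 10 libraries of mouse cortical neurons in 4 groups was analysed. The authors deposited 1 table of raw counts for 48526 genes, and 1 table of normalized counts, a signal in which each library's counts are divided by 1 size factor, used here for symbols alone. Per the submitters' processing notes the build is mm10 and the tools include SAMtools, DESeq2 and deepTools; neither aligner nor counter is given in the sources used here.

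Raw counts were tested with edgeR 4.0.16 (R 4.3.3, limma 3.58.1) by the quasi-likelihood F test with robust shrinkage, TMM scaling and a mean per group, on 13452 genes that passed filterByExpr (minimum count 10, minimum total 15) and hold 99.78% of counts. The fit used the 8 distinct libraries. P-values were adjusted by Benjamini-Hochberg over all genes within each of 5 comparisons, at a threshold of 0.05. Levels are CPM, with replicates 1 and 3 of Control and BDNF averaged. Exon lengths and coordinates are from GENCODE M21 (mm10). The fit was tested on simulated data. A floor of 3 counts is 0.21 to 0.593 CPM, and covers counting error only.

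The members and lists were chosen with earlier results of these data known. Named with values are all members called in any comparison, with values per sample for up to 12 of the largest changes in each BDNF comparison and for members called in an H2BE comparison or in the difference of responses, and the 5 highest per length in Control; of the partner list, up to 4 called genes with the smallest p per comparison are named, followed into the other BDNF comparison. Alternatives were 18, among them DESeq2 1.42.0, other scaling, filters and blocks, a lowess correction (span 0.3) for length and GC content, and leaving out each library.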

Additional observations from a re-analysis of the deposited data

Results flagged for a closer look

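In 4 guidance genes the BDNF response under the H2BE virus differed from that under the control virus by a test of the difference itself (edgeR interaction contrast, adjusted over all genes). The difference on the log2 scale was -1.13 for Epha6, -0.46 for Robo1, -0.61 for Dcc and -0.58 for Sema3c, with adjusted p-values of 0.0368, 0.0368, 0.0441 and 0.0492. Every gene of the 4 had both H2BE samples above both Control samples and both H2BE-BDNF samples below both BDNF samples. The 4 genes were called from these same libraries, so this order follows in part from the call and adds no support to it. None of the 4 kept its call in every alternative. Epha6 was no longer called when any 1 library except BDNF replicate 1 was left out, at adjusted p-values of 0.0541 to 0.232. Robo1 lost its call without Control replicate 1 (0.304), H2BE replicate 2 (0.234) or either H2BE-BDNF library (0.118 without replicate 2, 0.0862 without replicate 3). Dcc lost its call without Control replicate 1 (0.327), BDNF replicate 2 (0.0551), either H2BE library (0.254 without replicate 2, 0.0581 without replicate 3) or either H2BE-BDNF library (0.122 without replicate 2, 0.13 without replicate 3). Sema3c lost its call when any 1 library except BDNF replicate 1 was left out, at 0.0513 to 0.281. After length and GC correction the adjusted p-values were 0.108, 0.328, 0.202 and 0.133, at differences of -1.12, -0.25, -0.48 and -0.58.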

How the results depend on the processing

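No call changed direction, and 145 of 1413 recomputed calls of single guidance genes were lost over 18 alternatives, 21 of 79 without H2BE replicate 2 and 0 of 79 with DESeq2's size factors in edgeR. DESeq2 gave no adjusted p for Sema4d in H2BE against Control nor for Epha6 and Sema3c in the difference of responses. In BDNF against Control 23 of 33 guidance calls, and in H2BE-BDNF against H2BE 24 of 40, were kept in every alternative run. With 1 sample left in a group, the spread was shared with the other groups, so the lone sample is assumed to vary like them.

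Leaving out 1 library at a time, guidance calls numbered 26 to 37 in BDNF against Control and 27 to 45 in H2BE-BDNF against H2BE (lower genes 18 to 32), 0 to 16 in H2BE against Control, 0 to 7 in H2BE-BDNF against BDNF and 0 to 12 in the difference of responses. Partner calls numbered 22 to 36 in H2BE-BDNF against H2BE, 0 to 18 in H2BE against Control, 0 to 11 in H2BE-BDNF against BDNF and 0 to 14 in the difference.

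In H2BE against Control guidance calls numbered 7 with DESeq2's size factors, 14 with no filter, 17 with all 10 libraries as replicates, 6 with replicates 2 and 3 alone, 0 after length and GC correction and 1 without robust shrinkage, an alternative chosen after seeing the data. Partner calls there were 23 with all 10 libraries and 2 after length and GC correction. In H2BE-BDNF against BDNF no filter gave 2 guidance calls. In the difference guidance calls were 8 with no filter, 16 with all 10 libraries, 7 with replicates 2 and 3 alone, 0 after length and GC correction and 2 without robust shrinkage; partner calls were 6 with DESeq2, 7 with no filter, 18 with all 10 libraries, 8 with replicates 2 and 3 alone and 0 after length and GC correction. The cause was not tested.

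Deviations of same-numbered libraries correlated at -0.17, -0.30, -0.26 and -0.20, so same-numbered libraries did not deviate together. With 2 libraries in a group the deviations mirror each other, so libraries with unlike numbers correlate at the same size with a positive sign. Whether libraries shared a culture or batch cannot be told from this. With a replicate block guidance calls were 32, 40, 1, 2 and 6 in the 5 comparisons in the order BDNF against Control, H2BE-BDNF against H2BE, H2BE against Control, H2BE-BDNF against BDNF and the difference, and partner calls in H2BE against Control were 5. With the block and the length and GC correction, guidance calls were 0 in H2BE against Control, 2 in H2BE-BDNF against BDNF and 0 in the difference, and partner calls were 0 in the first and last of these. A crossed block, chosen after seeing the data, gave 41 guidance calls in H2BE-BDNF against H2BE and 38 in BDNF against Control.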

Other observations

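Fold changes moved with transcript length in these libraries. Across the 58 tested guidance genes, which share libraries and are not independent replicates, Spearman's rho between exon length and log2 fold change was 0.21 in H2BE-BDNF against H2BE, 0.28 in BDNF against Control, 0.18 in H2BE against Control and -0.36 for the difference of responses. Across 13409 genes with a length the values were -0.05, 0.20, 0.29 and -0.31. After length and GC correction they were 0.19, 0.18, -0.05 and -0.07 over guidance genes, and -0.02, 0.00, 0.04 and -0.04 over all genes. The part of length in the calls of single genes was not tested beyond that correction.

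The collapsin response mediators, cytosolic proteins that act below semaphorin receptors, belong to the partner list. All 5 of them (Crmp1, Dpysl2, Dpysl3, Dpysl4 and Dpysl5) were lower with BDNF under each virus, at log2 fold changes between -0.49 and -0.24 in H2BE-BDNF against H2BE and between -0.45 and -0.22 in BDNF against Control. Of all genes, 7.69% were called lower under both viruses. In the whole partner list 18 genes were lower and 17 higher in H2BE-BDNF against H2BE, and 16 were lower and 23 higher in BDNF against Control. The 5 collapsin response mediators were singled out after their values were seen.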
